A study of Canis lupus familiaris with 22 samples.

Results

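Glycolysis and hypoxia response genes were examined in invasive urothelial carcinoma (iUC), the muscle-invasive form of bladder cancer that arises naturally in pet dogs. The set comprised 10 genes, which were HIF1A, SLC2A1, HK2, PFKP, PGK1, LDHA, CA9, BNIP3, ADM and NDRG1. They were taken through the array platform's annotation, and a probe set, the group of short probes that reports a transcript, was kept where one of these genes was its only symbol. This gave 19 probe sets of the 42924 analysed, or 10 of 15115 genes. HIF1A, SLC2A1 and PGK1 had 3 probe sets each, HK2, LDHA and CA9 had 2 each, and the other 4 genes had 1 each. A further 4 probe sets that name LDHA beside other genes were left out. All 10 genes had a value in every sample, and none was lost to a filter on low expression because the deposited values hold no level on which to filter.

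RNA was measured on Affymetrix canine arrays, with 1 array for each of 18 iUC samples and 4 normal bladder samples from different dogs. The iUC tissue was taken at cystoscopy before any therapy and was high grade on histopathology, whereas the normal tissue came from healthy dogs of matched age without tumors. Both were stored in Trizol, and 5 µg of total RNA entered each labelling reaction. The labels name no treatment or genetic change for either group and give no breed, sex or age for a sample. A value below is on the log2 scale and is centred on the median of that probe set over the 22 arrays, so it places a sample relative to the others and is not an expression level. Where several probe sets named a gene, their mean stood for it. A difference is the mean of the iUC samples minus the mean of the normal samples. A gene was called when the adjusted p of limma, a moderated linear model fitted over all genes, was 0.05 or below and the change was 2-fold or more. The number of samples limits the precision, above all the 4 normal ones.

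When oxygen is short, the protein HIF1A escapes hydroxylation and destruction, pairs with ARNT and switches on genes that carry glucose into the cell, turn it into lactate and dispose of the acid that results. SLC2A1 is the glucose transporter GLUT1, HK2 traps glucose by phosphorylation, PFKP is a phosphofructokinase, PGK1 makes ATP within glycolysis and LDHA reduces pyruvate to lactate. CA9 is a carbonic anhydrase of the cell surface that buffers acid, BNIP3 takes part in the removal of mitochondria, ADM encodes the vasodilator peptide adrenomedullin and NDRG1 is a stress-responsive gene that is also expressed in differentiated epithelia. SLC2A1 and CA9 are familiar as hypoxia markers in human tumors of the urothelium.

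The arrays and tissues differed in ways that touch these genes. On the Tag control probe sets, which match no dog transcript, 7 iUC arrays (replicates 3, 4, 5, 6, 7, 13 and 18) had a mean between 0.277 and 0.460, against -0.128 to 0.131 on the other 11 and -0.215 to -0.0768 in normal bladder. The same 7 had GAPDH and actin control values of -1.13 to -0.582, below every other array, where the range was -0.338 to 0.375. In the tissue, smooth muscle markers were called lower in iUC for 13 of 16 genes, with a mean of 2.76 to 4.43 in the normal samples and -0.581 to 1.29 in iUC. Urothelium markers were called higher for 10 of the 16 measured, and their mean was -0.63, -0.32, -1.95 and -3.32 in normal replicates 1 to 4 against -1.13 to 0.68 in iUC. Markers of fibroblasts and matrix were called lower for 10 of 12 genes and higher for 1. Called lower were 3 of 10 endothelial, 1 of 14 leukocyte, 2 of 6 neutrophil, 1 of 2 erythroid and 2 of 5 skeletal muscle genes. Of all genes 8.64% were called lower. In such bulk tissue fewer cells of a type and less RNA per cell cannot be told apart, and the part of these marker differences in the values of the 10 genes was not tested. Each comparison was repeated without the 7 arrays, where 5.23% of genes and 5.04% of probe sets were called higher and 5.96% and 7.3% lower, and without the other 11, where 7.16% and 8.42% were called higher and 17.4% and 20.3% lower.

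The iUC samples did not show a joint rise of the glycolysis and hypoxia response genes. NDRG1 was called higher, and none of the 10 was called lower. Across all genes 3.68% were called higher and 8.64% lower (556 and 1306 genes), against 807 and 1080 genes after each array was scaled to its 75th percentile and 295 and 431 after quantile normalization. The difference was above 0 for 5 of the 10 genes and below 0 for 5, with a median of -0.02, beside a median of 0.08 over all genes. NDRG1 and HK2 had an adjusted p of 0.05 or below, and 35.7% of all genes did at any fold change. In none of the 10 genes were the iUC and normal values free of overlap, whereas in 3.22% of all genes every iUC sample was above all normal samples and in 4.47% below. By probe set, 1 of 19 was called higher (NDRG1) and 1 lower (a HIF1A probe set). Of all probe sets 3.9% were called higher and 10.7% lower. With the 11 arrays of low Tag signal alone, 3 of the 10 genes were called higher and 0 lower, beside 5.23% and 5.96% of all genes. All differences but those of CA9 and BNIP3 were then above 0. HIF1A, PFKP and PGK1 were near 0, at 0.03, 0.11 and 0.03. NDRG1, SLC2A1, ADM, LDHA and HK2 had an adjusted p of 0.05 or below, as did 5694 of all 15115 genes. With the 7 alone, 0 were called higher and 1 lower, beside 7.16% and 17.4%. NDRG1, HK2, SLC2A1 and CA9 were then above 0 and the others below. An adjusted p of 0.05 or below was found for NDRG1, HK2, HIF1A, LDHA and PGK1, and for 10044 of all 15115 genes.

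**Figure D1:**
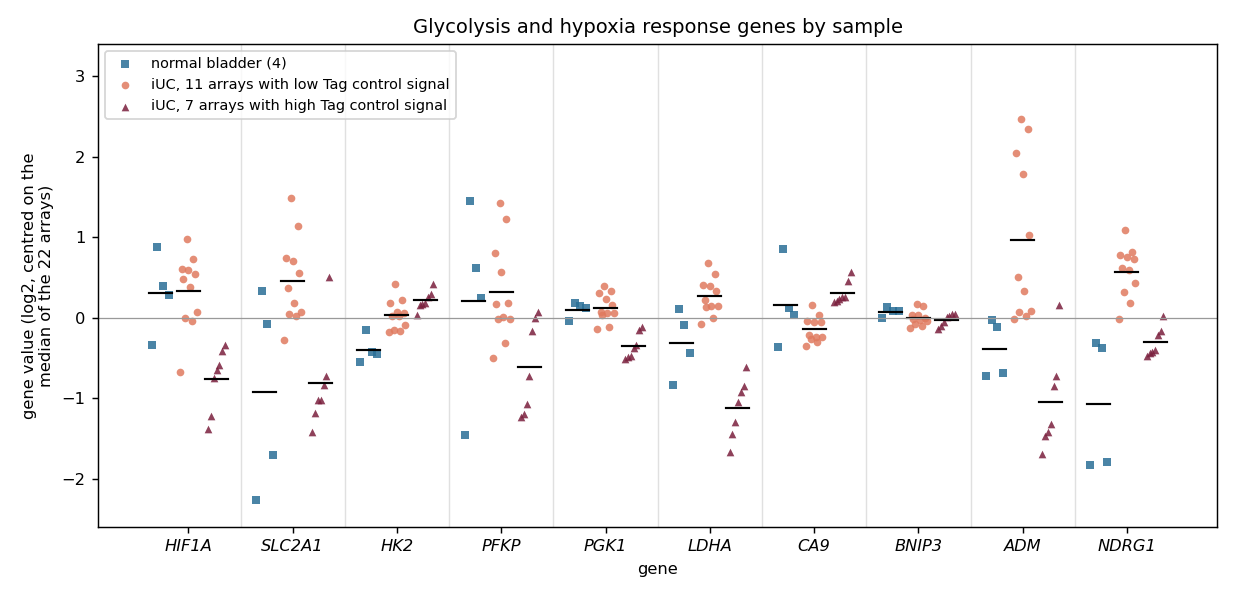
Gene values (log2, centred on the median of the 22 arrays; vertical axis) of the 10 genes in each sample, with squares for the 4 normal bladder samples, circles for the 11 iUC arrays with low Tag control signal and triangles for the 7 with high Tag control signal; the horizontal bars are means. The 7 arrays lie below all 11 others in LDHA and above all 11 in CA9, and ADM has the widest spread within iUC.

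HIF1A, the oxygen-regulated subunit of the transcription factor, had values of 0.88, -0.34, 0.27 and 0.40 in normal replicates 1 to 4. Across the 18 iUC samples its lowest, median and highest values were -1.38, -0.02 and 0.97. Of these, 10 fell within the normal range, 7 below and 1 above. The difference of -0.40 (SE 0.35, 95% interval -1.13 to 0.34) had an adjusted p of 0.374.

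The mean over its 3 probe sets hid opposite differences. Probe set CfaAffx.24079.1.S1_s_at was at 0.58, 0.64, 1.09 and 1.21 in the normal samples and at -1.22, -0.17 and 0.62 (lowest, median, highest) in iUC, so that 17 of 18 iUC samples lay below all normal ones. It was called lower, with a difference of -1.18 (SE 0.28, adjusted p 0.00336). Probe set Cfa.126.2.S1_s_at was at 1.19, -1.47, -0.81 and -0.93 in the normal samples and at -1.08, 0.16 and 1.62 in iUC, a difference of 0.69 (adjusted p 0.222). Normal replicate 1 was far above the other normal samples on that probe set, and without it the difference was 1.25 (adjusted p 0.0313), past both thresholds, while without replicate 2 it was 0.37 (adjusted p 0.581). Probe set Cfa.126.1.S1_s_at differed by -0.70 (adjusted p 0.187). The 3 nevertheless varied together among the iUC samples, with r from 0.70 to 0.98 within the 11 arrays and from 0.64 to 0.85 within the 7.

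The HIF1A values also moved with the array sets. The 7 arrays of high Tag signal had a median of -0.65 and the other 11 a median of 0.48. Against the normal samples, the 11 arrays differed by 0.03 (adjusted p 0.941) and the 7 by -1.06 (adjusted p 0.00308), the latter past both thresholds. The called probe set differed by -0.81 with the 11 arrays (adjusted p 0.00219), which is under 2-fold and so no longer a call.

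**Figure D2:**
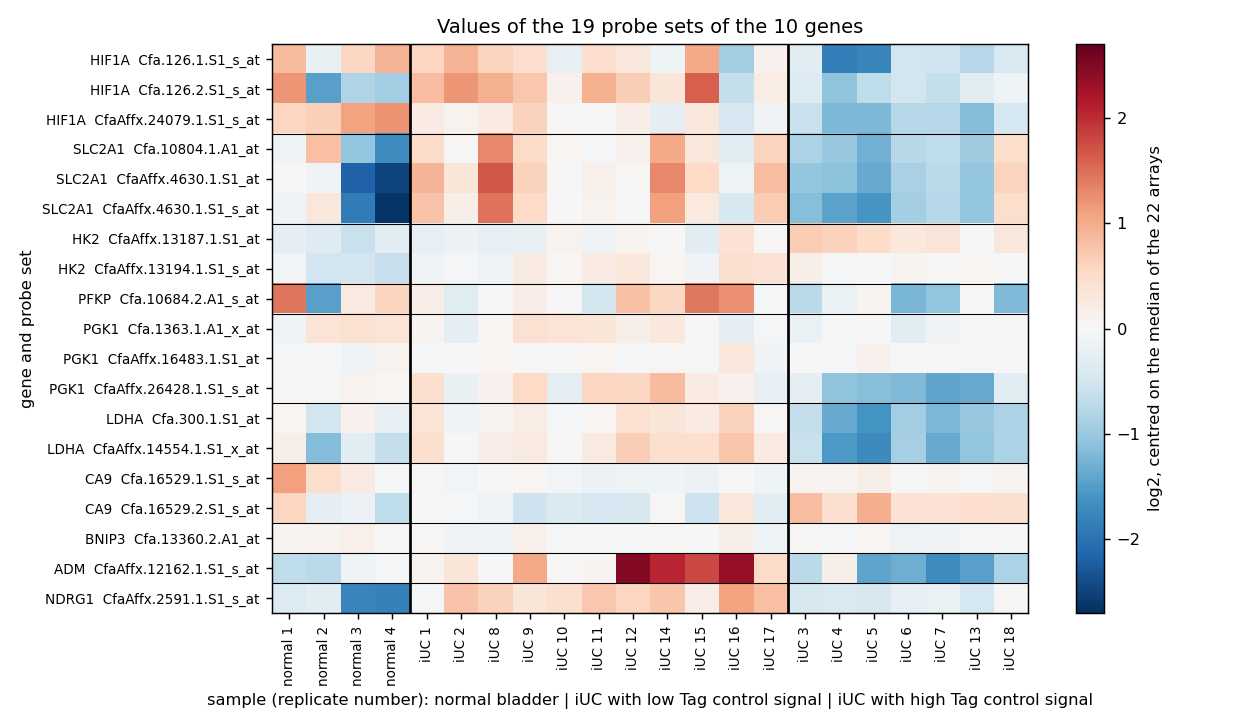
Values (log2, centred; colour scale) of the 19 probe sets (rows) in each sample (columns), with normal bladder at the left, the 11 iUC arrays of low Tag signal in the middle and the 7 of high Tag signal at the right. The 3 HIF1A probe sets part in the normal samples, NDRG1 and both CfaAffx rows of SLC2A1 are lowest in normal replicates 3 and 4, and BNIP3 and PGK1 CfaAffx.16483.1.S1_at hardly vary.

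SLC2A1, the glucose transporter, was at -0.07, 0.34, -1.71 and -2.26 in the 4 normal samples. In iUC its lowest, median and highest values were -1.42, 0.05 and 1.48. Normal replicates 3 and 4 lay below every iUC sample, replicates 1 and 2 lay among them, and 7 of 18 iUC samples exceeded all normal samples. The difference was 0.89 (SE 0.49, 95% interval -0.12 to 1.90, adjusted p 0.147), 1.85-fold, and was not called.

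Its 3 probe sets differed by 0.46, 1.22 and 0.99, and they followed each other closely among the iUC samples, with r between 0.97 and 1.00. The probe set CfaAffx.4630.1.S1_at, with the difference of 1.22 (adjusted p 0.0683), passed the thresholds without normal replicate 1 (1.62, adjusted p 0.0305) or replicate 2 (1.59, adjusted p 0.0465), and was at 0.90 (adjusted p 0.253) without replicate 3 and 0.80 (adjusted p 0.294) without replicate 4. The difference of the gene ranged likewise from 0.44 (adjusted p 0.53) without replicate 4 to 1.31 (adjusted p 0.0666) without replicate 2. For the gene, the 11 arrays of low Tag signal differed from normal by 1.38 (adjusted p 0.018), 2.61-fold and past both thresholds, whereas the 7 differed by 0.11 (adjusted p 0.855). With array weights in limma, which called 7.05% of genes and 6.21% of probe sets higher, the difference over all samples was 1.91 (adjusted p 8.13e-05). The median of the 7 arrays was -1.02 and that of the 11 was 0.37, although replicate 18, one of the 7, was at 0.51.

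HK2, a hexokinase, varied little within each group. Its values were -0.16, -0.43, -0.55 and -0.45 in the normal samples and -0.18, 0.11 and 0.42 (lowest, median, highest) in iUC. Above all normal samples lay 16 of 18 iUC samples, and the other 2 lay just below normal replicate 1. The difference of 0.50 (SE 0.10, 95% interval 0.29 to 0.72) had an adjusted p of 0.000977. At 1.42-fold it was below the 2-fold threshold and was not called. Over all samples both HK2 probe sets differed by a like amount, 0.49 (adjusted p 0.0198) and 0.51 (adjusted p 0.00066). In the same order they differed by 0.32 and 0.55 with the 11 arrays, and by 0.76 and 0.46 with the 7. Their r was 0.71 within the 11 and 0.06 within the 7. The difference of the gene was 0.43 with the 11 arrays (adjusted p 0.00594) (SE 0.11) and 0.61 with the 7 (adjusted p 0.000194). After quantile normalization it was 0.43 with an adjusted p of 0.0558.

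PFKP, the platelet-type phosphofructokinase, spanned nearly the whole range within the normal samples, at 1.45, -1.46, 0.24 and 0.61. The iUC values of -1.24, -0.01 and 1.43 (lowest, median, highest) all lay inside that range. The difference of -0.26 (SE 0.44, adjusted p 0.653) turned to 0.16 without normal replicate 1 and to 0.11 without the 7 arrays. The highest iUC values, 1.43, 1.23 and 0.80, belonged to replicates 15, 16 and 12.

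PGK1, phosphoglycerate kinase, was at -0.05, 0.12, 0.14 and 0.18 in the normal samples and at -0.51, -0.04 and 0.40 (lowest, median, highest) in iUC. Of the iUC samples 4 lay above the normal range, 9 below and 5 within. The difference was -0.16 (SE 0.15, 95% interval -0.47 to 0.15, adjusted p 0.401). Its 3 probe sets did not follow each other, with r from -0.34 to 0.52 within the 11 arrays and from -0.14 to 0.13 within the 7. Only CfaAffx.26428.1.S1_s_at of the 3 varied widely in iUC, from -1.43 to 0.86, while its normal values stayed between -0.01 and 0.10. All 7 arrays of high Tag signal were below all 11 others on that probe set. Of all genes 12.8% showed this by gene value, and the share over all probe sets was not counted. Probe sets ending in _x_at, as 1 of PGK1 and 1 of LDHA do, can also detect near-identical copies, so their share of these signals is uncertain.

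LDHA, the lactate dehydrogenase subunit that favours lactate, was at 0.11, -0.84, -0.09 and -0.44 in normal bladder. The iUC values had a lowest of -1.67, a median of 0.06 and a highest of 0.68, with 9 samples above the normal range, 6 below and 3 within. The difference was 0.04 (SE 0.38, 95% interval -0.74 to 0.82, adjusted p 0.939), and its sign turned without normal replicate 2 or 4. This figure averaged over a clean parting of the iUC arrays. The 7 of high Tag signal lay at -1.67 to -0.62 and the other 11 at -0.08 to 0.68, without overlap. Of all genes, 12.8% had all 7 arrays below all 11. Against normal bladder the 11 arrays differed by 0.58 (SE 0.16, adjusted p 0.0113), and the 7 differed by -0.81 (SE 0.22, adjusted p 0.0077). Neither reached 2-fold. Its 2 probe sets tracked each other with r of 0.96 in the 11 arrays and 0.99 in the 7.

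CA9, the carbonic anhydrase used as a tissue marker of hypoxia, did not stand out in iUC by the mean of its 2 probe sets. Its normal values were 0.85, 0.12, 0.04 and -0.37, and all 18 iUC values, from -0.36 through a median of 0.00 to 0.57, lay between them. The difference was -0.13 (SE 0.17, 95% interval -0.49 to 0.23, adjusted p 0.566). It turned to 0.10 without normal replicate 1, the highest of all 22 samples. The 2 probe sets differed in opposite directions, by -0.46 for Cfa.16529.1.S1_s_at (adjusted p 0.00503, 1.38-fold) and by 0.21 for Cfa.16529.2.S1_s_at (adjusted p 0.528). On the former, the normal values were 1.11, 0.48, 0.23 and -0.05 against -0.16 to 0.17 in iUC, and without normal replicate 1 the difference on it was -0.24 (adjusted p 0.0318). Its SD over iUC was 0.0945, and 7.29% of all probe sets had a smaller one, whereas that of the latter was 0.472. Their r was 0.37 within the 11 arrays and 0.70 within the 7. Whether either probe set follows the transcript cannot be seen from centred values. In contrast to LDHA, the CA9 values of the 7 arrays (0.19 to 0.57) were all above those of the 11 (-0.36 to 0.15), as held for 15.9% of all genes.

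BNIP3, a mitochondrial protein of the BCL2 family, hardly varied. The normal values were 0.08, 0.08, 0.13 and -0.01 and the iUC values ran from -0.14 through a median of -0.01 to 0.17. The difference was -0.08 (SE 0.06, adjusted p 0.278). The SD of BNIP3 over the iUC samples was 0.0843, and 2.94% of all genes had a smaller one. Whether its single probe set follows the transcript cannot be seen from centred values, which do not show how far a signal lies above background.

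ADM, adrenomedullin, had the largest spread of the 10 genes. The normal samples were at -0.69, -0.73, -0.12 and -0.03. The iUC samples had a lowest of -1.70, a median of 0.08 and a highest of 2.47, with 12 above the normal range, 5 below and 1 within. Its SD over iUC was 1.33, larger than that of 99.2% of all genes, for which the median SD was 0.335. The 4 highest values were 2.47, 2.35, 2.05 and 1.78 in replicates 12, 16, 14 and 15, all among the arrays of low Tag signal. The difference over all samples was 0.58 (SE 0.65, 95% interval -0.77 to 1.92, adjusted p 0.483). With the 11 arrays alone it was 1.36 (SE 0.49, adjusted p 0.0409), 2.57-fold and past both thresholds. With the 7 alone it was -0.66 (adjusted p 0.0888).

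NDRG1, the gene called higher, was at -0.38, -0.31, -1.79 and -1.83 in normal replicates 1 to 4. In iUC the lowest, median and highest values were -0.48, 0.25 and 1.09. Above all normal samples lay 14 of 18 iUC samples, and the other 4 lay between normal replicates 1 and 3. The difference was 1.31 (SE 0.31, 95% interval 0.67 to 1.94, adjusted p 0.00274), 2.48-fold. All 11 arrays of low Tag signal were above the normal samples, with a difference of 1.65 (adjusted p 0.000451). The 7 arrays differed by 0.77 (SE 0.29, adjusted p 0.0359), 1.71-fold and below the threshold for a call. It was called without each normal sample in turn, at 1.06 to 1.56, but not with the ending of the sample label as a block (0.61, adjusted p 0.845). That fit rests on normal replicate 1, the one normal sample that shares its label ending with the iUC samples.

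**Figure D3:**
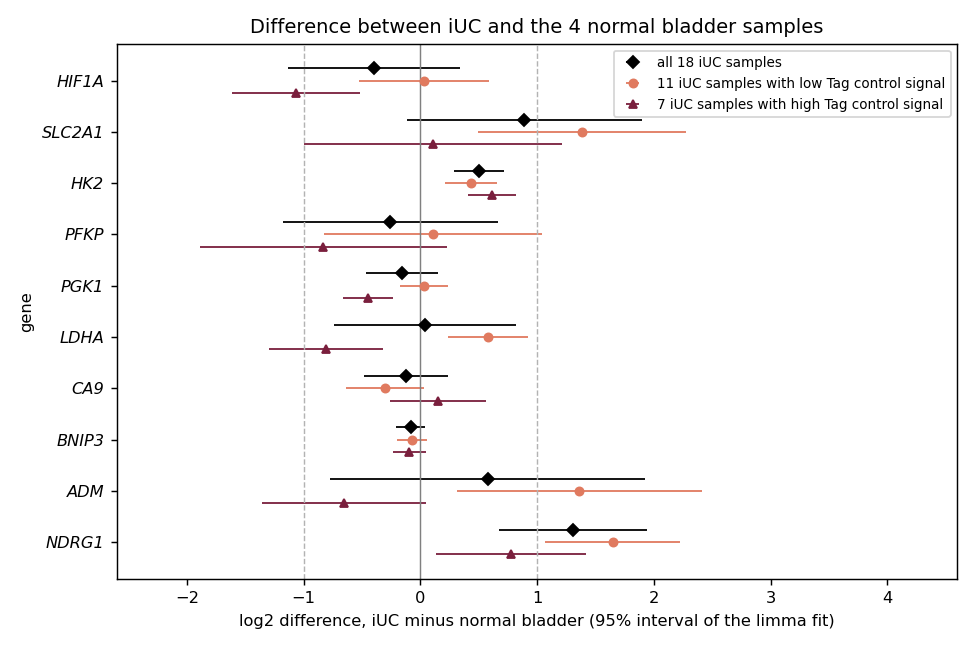
Difference in log2 gene value between iUC and the 4 normal bladder samples (horizontal axis) for each gene, with 95% intervals from limma, for all 18 iUC samples (diamonds), the 11 of low Tag signal (circles) and the 7 of high Tag signal (triangles); dashed lines mark a 2-fold change. NDRG1, HK2 and SLC2A1 lie above 0 and BNIP3 below 0 with each set, whereas the other 6 genes lie on opposite sides of 0 with the 11 and the 7, LDHA and ADM the farthest apart.

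The lowest NDRG1, SLC2A1 and HK2 values, those of normal replicates 3 and 4, fell in the samples with the least urothelial signal. The urothelium marker mean of these 2 samples was -1.95 and -3.32, against -0.63 and -0.32 in replicates 1 and 2, and their smooth muscle mean was 4.07 and 4.43, against 3.72 and 2.76. NDRG1 was at -1.79 and -1.83 there and at -0.38 and -0.31 in replicates 1 and 2. HK2 was also lowest in replicates 3 and 4, at -0.55 and -0.45, although replicate 2, at -0.43, was close to them and replicate 1 was at -0.16. The 7 arrays of high Tag signal had a median urothelium mean of -0.19 and the 11 a median of 0.39. In the same order the medians were -0.41 and 0.62 for NDRG1 and -1.02 and 0.37 for SLC2A1. HK2 went the other way, with medians of 0.18 and 0.02. The part of tissue makeup in the differences of NDRG1, SLC2A1 and HK2 was not tested.

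**Figure D4:**
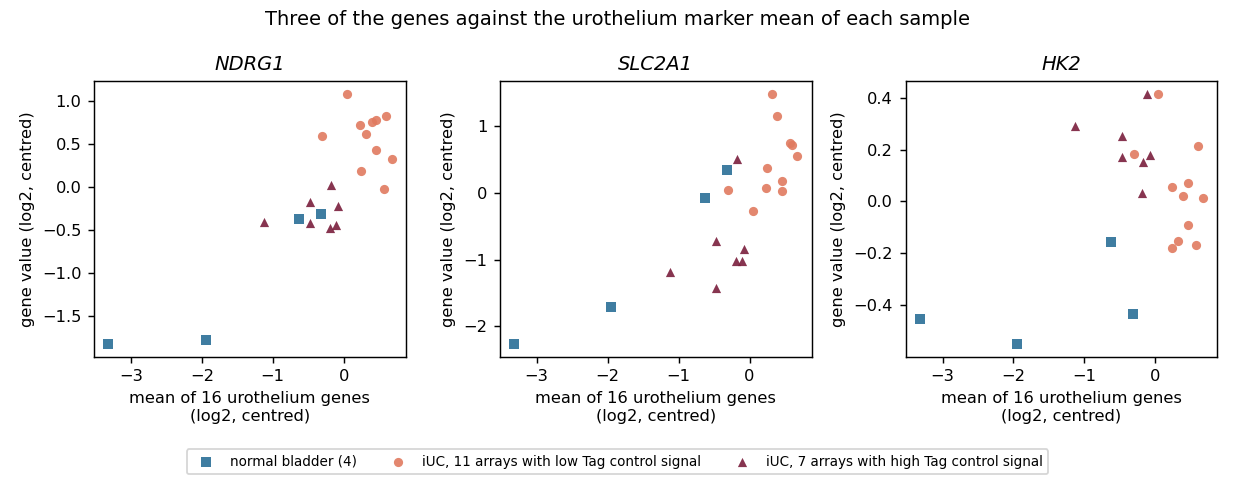
Gene value (log2, centred; vertical axis) of NDRG1, SLC2A1 and HK2 against the mean of 16 urothelium marker genes (log2, centred; horizontal axis) in each of the 22 samples, with squares for normal bladder, circles for the 11 iUC arrays of low Tag signal and triangles for the 7 of high Tag signal. Normal replicates 3 and 4, at -1.95 and -3.32 on the horizontal axis, hold the lowest values of all 3 genes, and in HK2 normal replicate 2, at -0.43, lies close to them.

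The genes differed widely in how much they varied from one tumor to another. Within iUC the SD was 1.33 for ADM, 0.84 for SLC2A1, 0.75 for PFKP, 0.75 for LDHA, 0.69 for HIF1A and 0.51 for NDRG1, and it was 0.29 for PGK1, 0.27 for CA9 and 0.18 for HK2. Within the 11 arrays of low Tag signal alone, the SD of LDHA was 0.23, near the median of 0.21 over all genes, while that of ADM (1.00), PFKP (0.62) and SLC2A1 (0.53) exceeded 97.9%, 92.0% and 88.8% of all genes. The spread of LDHA was thus wide over the 18 samples and ordinary within the 11, whereas that of ADM, PFKP and SLC2A1 was wide in both.

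Whether the genes moved together from tumor to tumor was examined within each array set, since pooling both would join 2 separate clusters. All 45 pairs were correlated in each set, 90 tests in all, and none had an adjusted permutation p of 0.05 or below, while 7 pairs in the 11 arrays and 4 in the 7 had an unadjusted p of 0.05 or below. The strongest pairs in the 11 arrays were HIF1A with HK2 and PFKP with ADM. HIF1A and HK2 had opposite signs (r -0.84, permutation p 0.0016, adjusted 0.072; rho -0.82, permutation p 0.00324, adjusted 0.225), and r was -0.70 without the 2 samples farthest from the HIF1A median. PFKP and ADM had the same sign (r 0.84, permutation p 0.00149, adjusted 0.072; rho 0.71, permutation p 0.0182, adjusted 0.275), and r was 0.85 without the 2 farthest samples. LDHA correlated with ADM (r 0.79, rho 0.71, adjusted permutation p of r 0.123) and with PFKP (r 0.77, rho 0.80, adjusted permutation p of r 0.123). Among the 7 arrays the highest r was 0.89 for SLC2A1 with NDRG1 (rho 0.71, exact permutation p 0.00734, adjusted 0.132). The median r over the 45 pairs was 0.09 in the 11 arrays and 0.06 in the 7.

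The regulators that act with HIF1A gave no call. Of 16 listed genes 14 were measured, with a median difference of -0.12. Of the 14, 0 were called in either direction, where 3.68% of all genes were called higher and 8.64% lower. An adjusted p of 0.05 or below, under 2-fold, was found for 4 (VHL, ARNT, ELOB and ELOC), beside 35.7% of all genes at any fold change. ELOB and ELOC were lower, by -0.87 (SE 0.18, adjusted p 0.000978) and -0.98 (SE 0.34, adjusted p 0.0307). In both, all 18 iUC samples lay below all normal ones, as in 4.47% of all genes. EPAS1, which encodes HIF2A, was at 0.24, -0.79, -1.30 and -1.40 in the normal samples and at -0.68, 0.04 and 2.80 (lowest, median, highest) in iUC. Its difference of 1.05 had an adjusted p of 0.0531, and without normal replicate 1 it was 1.40 with an adjusted p of 0.02. Without replicate 3 or 4 the EPAS1 difference was 0.88 and 0.85, with adjusted p of 0.173 and 0.185. VHL, which targets HIF subunits for destruction, differed by 0.97 (SE 0.34, adjusted p 0.0322), 1.96-fold, and by 1.17 (adjusted p 0.0216), past both thresholds, without normal replicate 1. Without replicate 2, 3 or 4 the VHL difference was 1.02, 0.87 and 0.82, with adjusted p of 0.0581, 0.112 and 0.13. ARNT, the partner of HIF1A, differed by 0.38 (SE 0.13, adjusted p 0.0305), and by 0.25 (adjusted p 0.189) without replicate 4. The oxygen sensors EGLN1 and EGLN3 differed by -0.41 (adjusted p 0.0951) and 0.28 (adjusted p 0.736). EGLN3 had all 7 arrays of high Tag signal below all 11 others, as did VHL. This held for 4 of the 14 regulators, beside 12.8% of all genes.

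Among the other glycolysis enzymes and transporters, 39 of 42 listed genes were measured, with a median difference of 0.06. Of the 39, 4 were called higher, 2 lower and 33 not, where 3.68% of all genes were called higher and 8.64% lower. Phosphofructokinase showed opposite calls for its other subunits. PFKL, the liver-type subunit, was at -0.61, -0.75, -0.98 and -1.37 in normal bladder and at -0.66, 0.13 and 0.78 (lowest, median, highest) in iUC, a difference of 1.04 (SE 0.25, adjusted p 0.00323). PFKM, the muscle-type subunit, was at 0.27, 1.48, 1.90 and 2.13 in normal bladder and at -1.43, -0.27 and 1.26 in iUC, a difference of -1.65 (SE 0.46, adjusted p 0.00923). The normal samples with the higher smooth muscle means, replicates 3 and 4, held the 2 highest PFKM values. Replicate 1 was below replicate 2 in PFKM, although its smooth muscle mean was higher, at 3.72 against 2.76. Without normal replicate 4 neither subunit was called, at 0.89 for PFKL and -1.42 for PFKM (adjusted p 0.0585).

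The steps from pyruvate onward held the remaining calls of that list. SLC16A3, the lactate exporter MCT4, differed by 1.38 (SE 0.46, adjusted p 0.0235), and 15 of 18 iUC samples exceeded all normal ones. BSG, the chaperone of that transporter, differed by 1.25 (SE 0.40, adjusted p 0.0203), with normal replicate 1 at 0.87 and the other 3 normal samples between -1.37 and -1.88. Both SLC16A3 and BSG lost the call without normal replicate 2, 3 or 4, with adjusted p between 0.0545 and 0.123. Of the 4 kinases that switch off pyruvate dehydrogenase, 1 was called higher and 1 lower. PDK2 was higher by 1.40 (SE 0.26, adjusted p 0.000413), and 17 of 18 iUC samples exceeded all normal samples. PDK3 was lower, with a difference of -1.84 (SE 0.29, adjusted p 6.83e-05), and 17 of 18 were below all normal samples. PDK1 differed by -0.47 (adjusted p 0.474) and PDK4 by -1.46 (SE 0.64, adjusted p 0.0767), and neither was called.

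Other enzymes of the pathway were not called. HK1, the ubiquitous hexokinase, differed by 0.84 (SE 0.28, adjusted p 0.0248), 1.79-fold, and its adjusted p was 0.092 and 0.116 without normal replicate 3 or 4. The lactate and pyruvate carrier SLC16A1 differed by -0.71 (SE 0.18, adjusted p 0.00438), 1.64-fold, with 16 of 18 iUC samples below all normal ones. GAPDH, ENO1 and PKM, all enzymes of the later steps, differed by 0.06 (adjusted p 0.683), 0.20 (adjusted p 0.571) and -0.54 (adjusted p 0.304). HK1 and ENO1 had all 7 arrays of high Tag signal below all 11 others, as LDHA had. This held for 7 of the 39 measured genes of the list, beside 12.8% of all genes. The GAPDH gene itself, read by 1 probe set, had a median of 0.15 in the 7 arrays and -0.10 in the 11, while the GAPDH and actin controls of the 7 were lower. No probe set named LDHB alone.

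Of the other hypoxia targets, 38 of 44 listed genes were measured, with a median difference of -0.03. Of the 38, 1 was called higher, 4 lower and 33 not, where 3.68% of all genes were called higher and 8.64% lower. TFRC, the transferrin receptor that takes up iron, was at -1.55, -1.24, -2.05 and -2.35 in the normal samples and at -1.39, 0.82 and 3.90 (lowest, median, highest) in iUC. Its difference of 2.71 (SE 0.82, adjusted p 0.0153) was the largest rise among the listed genes, and without normal replicate 3 or 4 the adjusted p was 0.0556 and 0.0636. The lower genes were BHLHE41, a circadian repressor, by -2.43 (SE 0.31, adjusted p 4.16e-06), RAMP2, a partner of the adrenomedullin receptor, by -1.97 (SE 0.33, adjusted p 0.000123), AK4, a mitochondrial adenylate kinase, by -1.78 (SE 0.23, adjusted p 7.78e-06), and MXI1, an antagonist of MYC, by -1.55 (SE 0.31, adjusted p 0.000807). AK4 values did not overlap, at 0.64 to 2.48 in normal bladder and -0.75 to 0.31 in iUC. RAMP2 is also an endothelial gene, and 3 of 10 endothelial markers were called lower in iUC. In normal replicates 1 to 4 RAMP2 was at 2.52, 1.42, 2.33 and 1.79. The endothelial marker mean was 0.29, 0.26, 1.28 and 1.40, so the 2 did not share their highest sample. The part of endothelial cells in the RAMP2 difference was not tested.

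**Figure D5:**
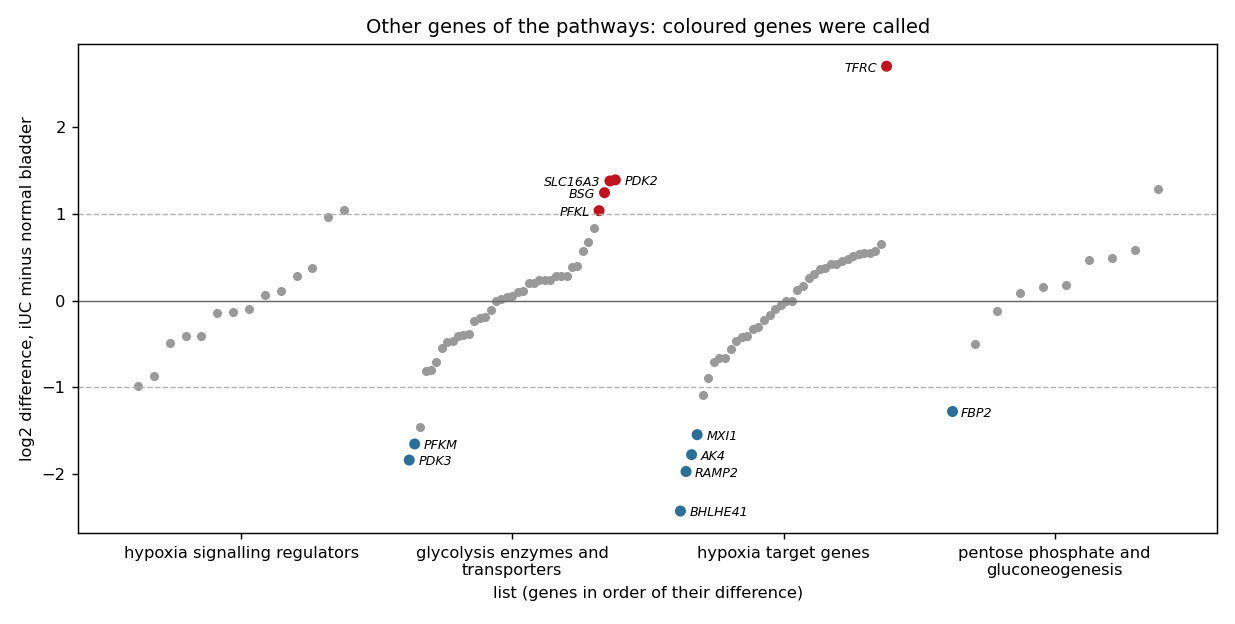
Difference in log2 gene value between iUC and normal bladder (vertical axis) for the measured genes of the 4 lists, ordered by difference within each list (horizontal axis); red points were called higher, blue points lower and grey points not called, and dashed lines mark a 2-fold change. TFRC at 2.71 and BHLHE41 at -2.43 are the extremes, and the regulators hold no called gene.

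Other targets named for their relation to the 10 genes were not called. VEGFA, the angiogenic factor, differed by 0.55 (SE 0.62, adjusted p 0.486) and reached its highest value of 3.69 in iUC replicate 12, the sample with the highest ADM. BNIP3L, the paralog of BNIP3, differed by -0.42 (adjusted p 0.161), and CA12, a surface carbonic anhydrase like CA9, by 0.54 (adjusted p 0.273). In the pentose phosphate and gluconeogenesis list, 10 of 13 genes were measured, with a median of 0.17. Of the 10, 0 were called higher and 1 lower, beside 3.68% and 8.64% of all genes. The lower gene was FBP2, the muscle-type fructose bisphosphatase, at 0.57, 0.77, 1.76 and 2.01 in normal bladder and -0.26 to 0.50 in iUC, without overlap (difference -1.28, SE 0.18, adjusted p 2.47e-05). Over all 4 lists 5 of 101 measured genes were called higher and 7 lower, beside 3.68% and 8.64% of all genes. The median over the lists was 0.04, beside 0.08 over all genes. Of the 101 genes, 13 had all 7 arrays of high Tag signal below the other 11, beside 12.8% of all genes. In 4 of them all 7 were above, beside 15.9% of all genes. Of the 7 lower genes, 6 (all but RAMP2) were highest in normal replicates 3 and 4, where the smooth muscle mean was also highest. Replicates 1 and 2 did not follow that order, with a smooth muscle mean of 3.72 and 2.76. PFKM, PDK3, MXI1, BHLHE41 and FBP2 were lower in replicate 1 than in replicate 2, and AK4 was higher (1.26 against 0.64). The share of all lower genes that were highest in replicates 3 and 4 was not counted. The part of smooth muscle in these differences was not tested.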

How the data were processed

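RNA from 18 iUC and 4 normal bladder samples was hybridized to Affymetrix canine arrays, and the authors processed the arrays in GeneSpring GX. The deposited table holds log2 values of 43035 probe sets, each centred by the authors on its median over the 22 arrays. The steps of summarisation and normalization were not given in the sources used here. Centred values carry no level, so no filter on low expression was applied and levels of different genes were not compared. Array medians lay between -0.0276 and 0.0584. After 111 controls were removed, 42924 probe sets remained, of which 29254 had 1 gene symbol in the platform annotation, 439 several and 13231 none. Of those with 1 symbol, 27680 matched the reference table of dog genes, and 0 symbols were updated.

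The fit of group without covariates used lmFit and eBayes of limma 3.58.1 (R 4.3.3) over all 15115 genes or all 42924 probe sets, with Benjamini-Hochberg adjustment. Thresholds followed the methods of the study, with a call at 2-fold or more and an adjusted p up to 0.05. Correlations used 100000 permutations for 11 samples and all 5040 orders for 7. Of each pathway list, called genes and a fixed set of paralogs and partners were named, with PDK1, PDK4, ELOB and ELOC added after their values were seen. The 10 genes, the lists and the tests were chosen with earlier results of these data known, and LDHA, EPAS1, VHL, PDK1, PDK2, PDK3, FBP1, CITED2, KDM3A, VLDLR, EDN1, BHLHE40 and SLC2A4 are in gene tables that the study drew from these samples, so their directions are not independent evidence. Replicate numbers do not pair the samples, since they mark different dogs and the deviations of same-numbered samples correlated at -0.161 to 0.0653. Normal replicates 3 and 4 correlated at r 0.934, against 0.761 for the next pair. Python 3.11.15, pandas 2.3.3, scipy 1.17.1 and matplotlib 3.10.9 were used for tables, permutations and figures, and the fit was tested on simulated data. Alternatives were other normalizations, array weights, blocks, sample subsets, an unpaired test and other gene values.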

Additional observations from a re-analysis of the deposited data

Results flagged for a closer look

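The 4 normal samples were examined in 50 genes and probe sets for a sample far from the other 3. Such a sample was found in 1 of them, where chance gives about 1 in 20. On the PGK1 probe set Cfa.1363.1.A1_x_at, normal replicate 1 was at -0.13 and the other 3 at 0.37, 0.42 and 0.37, so that the gap made up 0.913 of the range of the group, above Dixon's critical value.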

How the results depend on the processing

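Limits come first from the 4 normal samples, of which replicates 3 and 4 resemble each other, and from 7 iUC arrays that stand apart on technical controls. Centred values show neither signal over background nor level. Of 161 values of the 10 genes under the alternatives, 136 kept their direction and their side of the thresholds, 18 changed sign, 3 lost a call and 4 gained one. Of 195 values of the probe sets, 163 held. Of 418 values of the other named genes, without PDK1, PDK4, ELOB and ELOC, 343 held. NDRG1 lost its call in the 3 fits named below and in no other in which it had a probe set. The cause of these changes was not tested.

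Array weights gave 2 of the 10 genes, 5 of their 19 probe sets and 11 of 101 pathway genes called higher (7.05% of all genes and 6.21% of all probe sets), with SLC2A1 at 1.91. Scaling to the 75th percentile moved the median difference of all genes from 0.08 to 0.20, with BNIP3 at 0.034. It gave 2 probe sets and 8 pathway genes called higher, beside 2450 of all 42924 probe sets and 807 of all 15115 genes. Quantile normalization gave 1 pathway gene higher and 4 lower, beside 295 and 431 of all 15115 genes. It called 0 probe sets of the 10 genes lower, beside 1626 of all 42924 probe sets. LDHA Cfa.300.1.S1_at was then at 0.016, CA9 Cfa.16529.2.S1_s_at at -0.0006 and GAPDH at -0.0057. With array weights, LDHA Cfa.300.1.S1_at was at 0.042 and GAPDH at -0.16.

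Without the 7 arrays of high Tag signal, 3 of the 10 genes (SLC2A1 at 1.38, ADM at 1.36 and NDRG1), 4 of their probe sets and 10 pathway genes were called higher (5.23% of all genes, 5.04% of all probe sets) and 0 of their probe sets lower (7.3% of all). HIF1A was then at 0.029, PFKP at 0.11, PGK1 at 0.028, PGK1 CfaAffx.26428.1.S1_s_at at 0.21, LDHA Cfa.300.1.S1_at at 0.33, CA9 Cfa.16529.2.S1_s_at at -0.10 and GAPDH at -0.039. Without the other 11, a fit added after the data had been seen, 0 of the 10 genes and 0 of their probe sets were called higher, while 1 gene (HIF1A at -1.06), 3 probe sets and 20 pathway genes were called lower (17.4% of all genes, 20.3% of all probe sets). NDRG1 was then at 0.77, LDHA at -0.81, ADM at -0.66, CA9 at 0.15, HIF1A Cfa.126.2.S1_s_at at -0.018, SLC2A1 Cfa.10804.1.A1_at at -0.22, LDHA CfaAffx.14554.1.S1_x_at at -0.66, EGLN3 at -1.15, ENO1 at -0.41 and VEGFA at -0.29.

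With the label ending as a block, NDRG1 was not called. Within a label ending the iUC samples stand against normal replicate 1 only, so numbers of calls are not given for that fit. It moved the CA9 probe set Cfa.16529.1.S1_s_at from -0.46 to -1.13, past a 2-fold change. That fit gave NDRG1 0.61, LDHA -0.38, HIF1A Cfa.126.2.S1_s_at -1.01, PGK1 Cfa.1363.1.A1_x_at 0.15, LDHA CfaAffx.14554.1.S1_x_at -0.40, CA9 Cfa.16529.2.S1_s_at -0.51, EPAS1 -0.0074, ARNT -0.15, EGLN1 0.15, ENO1 -0.11, BSG -0.61, VEGFA -0.31, BNIP3L 0.082 and CA12 -0.019. With the replicate block, 0 of the 10 genes and 0 of their probe sets were called in either direction, and 1 pathway gene each way. Of all 15115 genes 215 were then called higher and 349 lower, and of all 42924 probe sets 232 and 467. NDRG1 was at 1.05 (adjusted p 0.0641), HK2 at 0.51 (adjusted p 0.146), LDHA at -0.12, CA9 at 0.017 and PGK1 CfaAffx.16483.1.S1_at at -0.0044. That block sets only 4 pairs of different dogs against each other.

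Leaving out 1 normal sample at a time gave 1 to 3 probe sets and 1 to 7 pathway genes called higher and 6 to 9 pathway genes lower. Of all 15115 genes these fits called 298 to 716 higher and 967 to 1495 lower. Of all 42924 probe sets they called 914 to 2166 higher. PFKP ranged from -0.81 to 0.16, LDHA from -0.14 to 0.18 and CA9 from -0.30 to 0.10. PGK1 CfaAffx.16483.1.S1_at ranged from -0.0061 (without replicate 3) to 0.0595 and GAPDH from -0.038 (without replicate 2) to 0.12. With normal replicates 3 and 4 taken as 1 sample, 1 pathway gene was called higher, beside 312 of all 15115 genes. With the probe set of largest variance for each gene, 12 pathway genes were called lower, beside 2044 of all 15115 genes. HIF1A was then at 0.69 and CA9 at 0.21. Without probe sets ending in _x_at or _s_at, 0 of the 10 genes were called higher, since the NDRG1 probe set is one of them. Of the 12312 genes left, 435 were called higher. PGK1 was then at 0.025, LDHA at -0.17 and EGLN3 at -0.077. An unpaired test with equal variances, which the paper names beside its gene list, called 522 genes higher and 1280 lower, close to the counts of limma. A count of hypoxia response elements in promoters had been planned and was not run, as no promoter sequence was used here.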
